A study of Homo sapiens with 6 samples.

Results

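The MHC class II genes were examined for V5-GSE1 ChIP-seq peaks together with CIITA and CD74. The set held 10 of the 20033 protein-coding genes annotated on the main chromosomes: CIITA, CD74, HLA-DRA, HLA-DRB1, HLA-DQA1, HLA-DQB1, HLA-DPA1, HLA-DPB1, HLA-DMA and HLA-DMB. The genes were chosen by name, and a peak was counted for a gene when it overlapped the gene's annotated span extended by 20 kb on each side. The experiment was carried out in NB4, a human acute promyelocytic leukaemia cell line. A V5-tagged form of GSE1 was over-expressed from a lentiviral pLEX_307 vector, and chromatin was immuno-precipitated with an antibody against the tag. GSE1-expressing cells received DMSO, the vehicle, or the LSD1 inhibitor MC2580 at 2 µM for 24 h, and cells carrying the empty vector (EV), for which the labels give no treatment, provided a control ChIP. The 6 libraries were 3 ChIPs and their 3 inputs, with 1 library per group. The peaks therefore describe a tagged, over-expressed protein, and a difference between the 2 peak lists is a difference between single libraries.

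MHC class II molecules display peptides from the endocytic route to CD4+ T cells, and each is a pair of an α and a β chain. CD74, the invariant chain, guards their groove until HLA-DM exchanges its remnant for a peptide. CIITA is the coactivator on which transcription of the family depends. It does not bind DNA itself, and acts through RFX, CREB and NF-Y proteins assembled on the X and Y boxes of class II promoters.

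V5-GSE1 peaks lay near 2 of these 10 genes in DMSO and near 1 after MC2580. Among all protein-coding genes, 36.2% had a DMSO peak in the extended span and 20.1% an MC2580 peak. In DMSO, 3 peaks fell in the extended spans, 1 at CIITA and 2 at HLA-DMA. The MC2580 list held 1 peak, at HLA-DMA. The extended spans of the other 8 genes, CD74 and all DR, DQ and DP chains together with HLA-DMB, held no peak of either list, as was the case for 61.4% of protein-coding genes. None of the 10 gene spans itself was touched by a peak, against 22.9% of protein-coding genes in DMSO and 12.3% after MC2580. The peak score, deposited with the lists, is minus 10 times the log10 of the peak caller's p-value, so that 50 is the lowest value a called peak can have.

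The central 200 bases of the 3 DMSO peaks are shown because they are the only stretches of DMSO-condition V5-GSE1 enrichment assigned to the set. Capitals mark matches, on either strand, to 6 short words that stand for transcription factors of myeloid cells. All are given on the plus strand of hg38.
DMSO peak at CIITA, chr16:10949531-10949730, plus strand: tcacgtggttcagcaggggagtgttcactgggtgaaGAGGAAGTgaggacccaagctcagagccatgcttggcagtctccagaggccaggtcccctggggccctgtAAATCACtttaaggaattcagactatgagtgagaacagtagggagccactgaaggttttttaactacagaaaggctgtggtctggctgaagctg
stronger DMSO peak at HLA-DMA, chr6:32970006-32970205, plus strand: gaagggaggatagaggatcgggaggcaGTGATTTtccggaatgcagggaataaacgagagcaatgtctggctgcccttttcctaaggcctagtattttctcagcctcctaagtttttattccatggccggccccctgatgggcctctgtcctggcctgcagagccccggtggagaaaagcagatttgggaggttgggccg
weaker DMSO peak at HLA-DMA, chr6:32972581-32972780, plus strand: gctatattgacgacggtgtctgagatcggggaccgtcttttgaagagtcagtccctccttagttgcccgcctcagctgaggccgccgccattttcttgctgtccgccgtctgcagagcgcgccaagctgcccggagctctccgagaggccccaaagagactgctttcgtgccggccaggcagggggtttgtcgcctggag

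The sequence assigned to CIITA lies beyond that gene, in an intron of the neighbouring gene CLEC16A. It held the PU.1 word GAGGAAGT, which 2.94% of all DMSO peak centres held, and the GFI1 word AAATCNC, found in 10.6% of them. PU.1 is a master regulator of the myeloid lineage, and GFI1 is a repressor that recruits LSD1. The stronger of the HLA-DMA peaks, which both lie within the neighbouring gene BRD2, held the GFI1 word on the minus strand, seen as its reverse complement. The weaker HLA-DMA peak and the MC2580 peak that overlaps it held none of the 6 words, and the remaining words had no match in any of these centres. They were the RUNX word TGTGGTTT, held by 4.67% of all DMSO peak centres, the AP-1 word TGANTCA, held by 9.33%, the CEBP word TTGCNNAA, held by 14.1%, and the GATA word AGATAA, held by 10.7%. These matches describe letters and do not show that a factor was bound. The G and C content was 52.5% at CIITA and 55% and 62.5% at the stronger and weaker HLA-DMA peaks.

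CIITA spans 76.8 kb on chromosome 16 (hg38, 10866222 to 10943021, plus strand). Its DMSO peak lay at chr16:10949160-10950101, 6139 bp beyond the 3′ end of the gene, was 942 bp wide and had a score of 76.71. This score exceeded that of 37.3% of the DMSO peaks and was below the list's median of 91.08. The peak lay inside CLEC16A, the next gene on the same chromosome, where it overlapped no exon and was thus intronic, 4579 bp from the nearest start site of that gene. The nearest annotated start of any CIITA transcript was 8441 bp away, at a transcript that begins near the 3′ end of the gene (CIITA-210). The nearest start of a protein-coding CIITA transcript was 26993 bp away, and the RefSeq start of the gene 82954 bp. The peak was thus not within 3 kb of any annotated CIITA start. No MC2580 peak overlapped it, and the nearest one in the MC2580 list was 655.0 kb from the gene. Of the 200 DMSO peaks closest to it in score (76.25 to 77.08), 23.5% were overlapped by an MC2580 peak (95% Wilson interval 18.2 to 29.8, counting error only). A peak of this score without an MC2580 counterpart was the usual case.

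HLA-DMA, a chain of the peptide exchanger HLA-DM, was the only gene of the set with a peak within 3 kb of an annotated start site. The stronger DMSO peak, at chr6:32969397-32970814, was 1418 bp wide with a score of 398.29, higher than that of 92.3% of the list. It lay 303 bp from the start of HLA-DMA-204, the most upstream transcript annotated for this minus-strand gene (32948613 to 32969094). From the RefSeq start of HLA-DMA the same peak was 16300 bp away. It covered annotated start sites of BRD2, a bromodomain reader of acetylated histones that lies within the class II region but does not present antigen. Of the 25 annotated BRD2 transcripts, 4 begin in this peak. A long non-coding RNA also begins there (ENSG00000223837).

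No MC2580 peak overlapped this strong DMSO peak. Among the 200 DMSO peaks closest to it in score (378.4 to 417.31), 78.5% were overlapped by an MC2580 peak (Wilson interval 72.3 to 83.6). The peak thus belonged to the minority of its score class without a counterpart, a description that rests on 1 library per condition.

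The weaker DMSO peak of HLA-DMA lay further into BRD2, at chr6:32972189-32973171, with a width of 983 bp and a score of 80.67. It was 3095 bp from the start of HLA-DMA-204 and 19092 bp from the RefSeq start of HLA-DMA, and its centre was within a BRD2 exon. It covered the starts of 3 BRD2 transcripts and of a long non-coding RNA (ENSG00000263756). The MC2580 peak at chr6:32972286-32972973 lay wholly inside it, with an overlap of 688 bp, and covered the start of 1 BRD2 transcript and that of the same long non-coding RNA. Its score was 52.37, close to the lowest value a called peak can have, and only 9.3% of the MC2580 list scored lower. The ratio of the MC2580 to the DMSO score was 0.649. This was the only position of the set with a peak in both lists. Of DMSO peaks of like score, 19% were overlapped (Wilson interval 14.2 to 25). Scores grow with sequencing depth, which was unknown, so the ratio was not read as a change in occupancy.

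**Figure D1:**
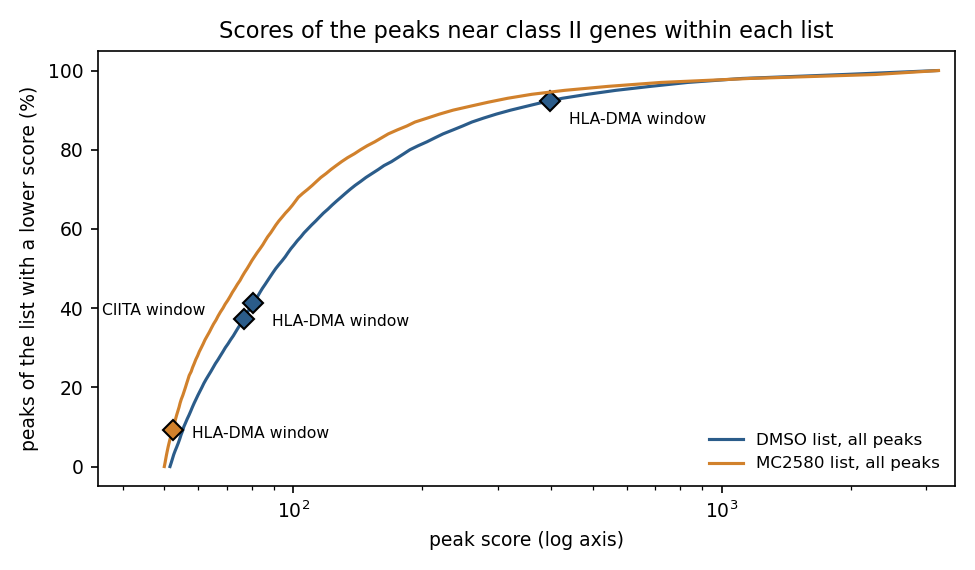
Peak score on a log axis (x) against the percent of the peaks of the same list with a lower score (y), for the DMSO list (blue) and the MC2580 list (orange), with diamonds at the 4 peaks in the extended spans. The DMSO peak at 398.29 lies high in its list, the DMSO peaks at 76.71 and 80.67 lie below the median of 91.08, and the MC2580 peak at 52.37 lies near the lower end.

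The genes for the antigen-presenting chains had no peak nearby. HLA-DRA (chromosome 6, 32439878 to 32445046), the shared α chain of HLA-DR, was 352.5 kb from the nearest DMSO peak and 352.4 kb from the nearest MC2580 peak. HLA-DRB1 (32577902 to 32589848), the main DR β chain, was 379.5 kb from a DMSO peak and 382.4 kb from an MC2580 peak. The HLA-DQ pair lay somewhat nearer. HLA-DQA1 (32628179 to 32647062) was 322.3 and 325.2 kb from peaks of the DMSO and MC2580 lists, and HLA-DQB1 (32659467 to 32668383) was 301.0 and 303.9 kb from them. For DRB1 and both DQ genes the nearest DMSO peak was the same strong one at BRD2, so these distances are not independent of each other.

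In the DMSO list the HLA-DP genes and HLA-DMB were the nearest to a peak among the genes without one. HLA-DPB1 (33075990 to 33089696) was 27.8 kb and HLA-DPA1 (33064569 to 33080775) 36.7 kb from a DMSO peak at chr6:33117520-33118238, which had a score of 63.63. The nearest MC2580 peaks were 103.0 kb from HLA-DPB1 and 91.6 kb from HLA-DPA1. HLA-DMB (32934629 to 32941028), the partner chain of HLA-DMA, was 28.4 kb from the strong BRD2 peak of the DMSO list and 31.3 kb from the MC2580 peak. The window of 20 kb thus decided whether HLA-DMA alone, or also its partner, was counted. CD74 (chromosome 5, 150401637 to 150412969) was 64.0 kb from a DMSO peak with a score of 369.91 and 64.1 kb from an MC2580 peak with a score of 55.78.

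**Figure D2:**
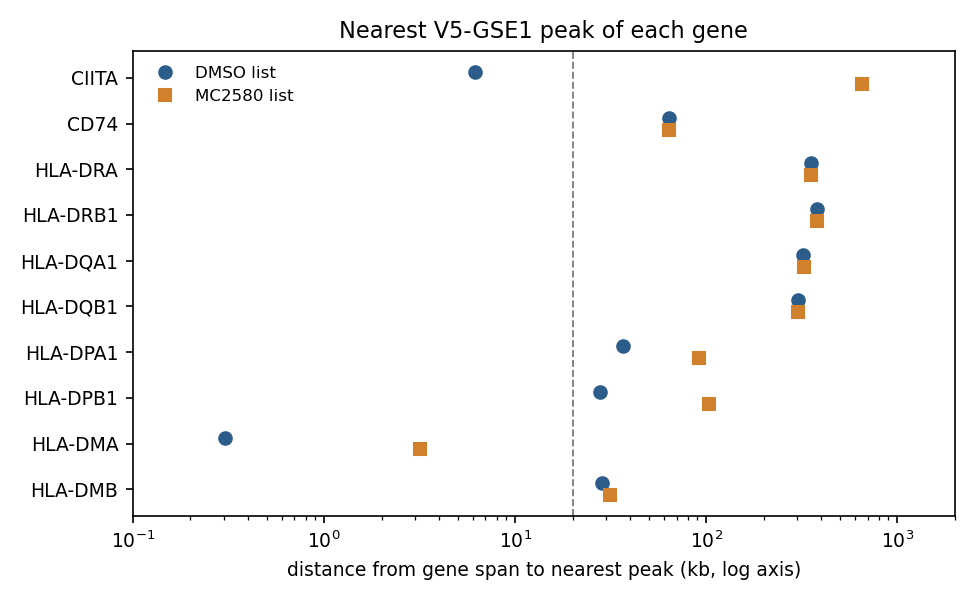
Distance in kb (log axis) from each gene span to the nearest peak of the DMSO list (blue circles) and the MC2580 list (orange squares), with a dashed line at 20 kb. CIITA at 6.1 kb and HLA-DMA at 0.3 kb lie left of the line in DMSO, and HLA-DMA alone lies left of it after MC2580, at 3.2 kb.

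On chromosome 6 the class II genes fell in a long interval without peaks. In the DMSO list no peak lay between positions 32087339 and 32969396, a stretch of 882 kb that held the spans of 6 of the genes (HLA-DRA, HLA-DRB1, HLA-DQA1, HLA-DQB1, HLA-DMA and HLA-DMB). Such stretches were not rare. Of the 668 intervals between neighbouring DMSO peaks on chromosome 6, 52 were longer, or 7.78%. In the MC2580 list the interval was 885 kb, and 46 of 227 intervals were longer, or 20.3%. These shares count intervals and not bases. The longer intervals cover a larger share of the chromosome than of the count. The block from HLA-DRA to HLA-DPB1 with 20 kb on each side held 2.9 peaks per Mb in DMSO and 1.45 per Mb after MC2580. The stretch of the MHC from HLA-F to this block, which holds class I and class III genes, had 12.2 peaks per Mb in DMSO and 5.19 per Mb after MC2580. The block's values rest on 2 peaks in DMSO and 1 after MC2580, those of the stretch on 33 and 14. A density over the whole genome or over chromosome 6 was not computed, and the contrast is not read as a depletion of the block. It does not tell whether the block is sparse or the stretch from HLA-F is dense. For scale, chromosome 6 is 170805979 bp long and held the 668 DMSO and 227 MC2580 intervals given above.

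These empty windows have limits of their own. Peak numbers in the DMSO list had gaps, and 1 number was missing within the 882 kb interval, so that a peak removed from that list may have lain there. At CIITA, CD74, HLA-DPA1 and HLA-DPB1 no number was missing, and the MC2580 list had no gaps at all. Reads were kept only with a unique match and at most 2 mismatches to the reference. The HLA-DR and HLA-DQ genes are highly polymorphic and have near-identical relatives, and whether this filter lowered coverage there was not tested.

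**Figure D3:**
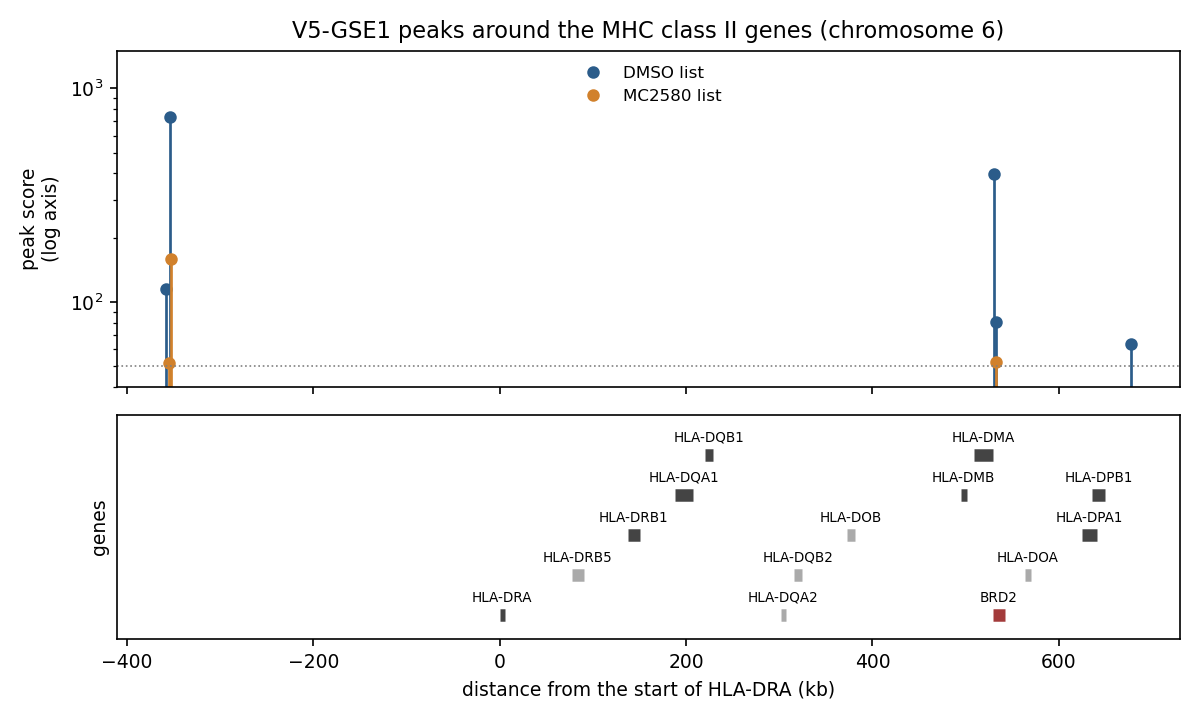
Peaks of the DMSO list (blue) and the MC2580 list (orange) by score on a log axis (top, dotted line at a score of 50) and gene spans (bottom, genes of the set dark, other class II genes light, BRD2 red) against distance in kb from the start of HLA-DRA. No peak lies between the left group, over 352 kb before HLA-DRA, and the BRD2 peaks at 530 kb.

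The counts were set beside those of all protein-coding genes. In DMSO 2 of the 10 genes had a peak in the extended span, against 36.2% of protein-coding genes. After MC2580 it was 1 of 10, against 20.1%. A peak of both lists was present for 1 gene, HLA-DMA, against 17.8%, and of neither list for 8 genes, against 61.4%. CIITA was the only gene with a peak in DMSO alone, a pattern shown by 18.5% of protein-coding genes, and no gene had a peak after MC2580 alone, the pattern of 2.37%. Within 3 kb of an annotated start, 1 gene had a DMSO peak, against 16.1%, and no gene had an MC2580 peak, against 7.87%. With 10 genes, many of them neighbours whose extended spans overlap, these counts are not read as a depletion.

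**Figure D4:**
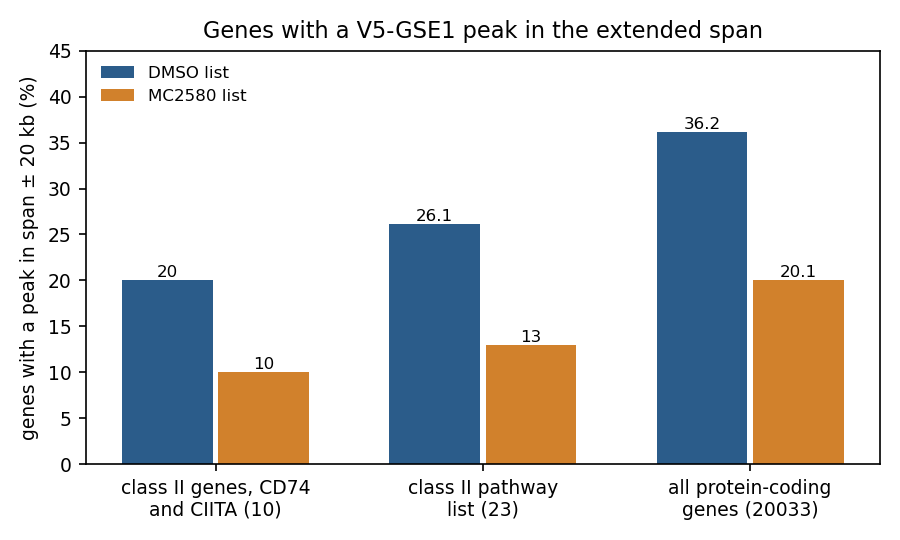
Percent of genes with a peak in the span extended by 20 kb on each side (y) for the 10 genes of the set, the 23 genes of the class II pathway list and all 20033 protein-coding genes, in the DMSO list (blue) and the MC2580 list (orange). The set stands at 20% and 10%, below the 36.2% and 20.1% of all genes, but each gene of the set is worth 10 percentage points.

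The promoters of the set were read from the RefSeq promoter table (GRCh38.p14), which holds 250 bases before and 50 after each start and had entries for 8 of the 10 genes. None of their 9 promoters overlapped a peak of either list, against 4.52% of all promoters in the table with a DMSO peak and 1.7% with an MC2580 peak, so that 0 of 9 does not set them apart. The HLA-DMA promoter was 16.1 kb from the nearest DMSO peak and 18.9 kb from the nearest MC2580 peak. That of HLA-DMB was 28.1 and 31.0 kb away, and that of CD74 63.8 and 63.9 kb. The Y box word CTGATTGG, bound by NF-Y, occurred in the promoters of HLA-DRB1, HLA-DQB1 and HLA-DMA, against 3.97% of all 35116 promoters in the table. The stretches that end in it are shown because they carry the element through which CIITA acts, and no V5-GSE1 peak covered them. They are on the minus strand of hg38, with the Y box in capitals.
HLA-DRB1, chr6:32589890-32589947, minus strand: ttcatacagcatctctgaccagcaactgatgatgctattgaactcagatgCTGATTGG
HLA-DQB1, chr6:32666741-32666798, minus strand: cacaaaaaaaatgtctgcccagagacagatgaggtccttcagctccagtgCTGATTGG
HLA-DMA, chr6:32953172-32953229, minus strand: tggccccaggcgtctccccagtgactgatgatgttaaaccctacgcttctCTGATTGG

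The Y box began 49 bases before the start in HLA-DRB1, 91 in HLA-DQB1 and 82 in HLA-DMA. Its core ATTGG, on either strand, was found in 7 of the 8 genes, all but HLA-DPA1, and in 34.6% of all promoters. A 14-letter X box word matched in HLA-DQB1, HLA-DMB and HLA-DMA, against 0.689% of promoters. The interferon word TTCNNNGAA matched in HLA-DQA1 alone, against 7.66%. No match says only that these letters were absent from the window.

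Genes that act with the class II system were examined by the same rule, from a list of 23. In DMSO 6 of them (26.1%) had a peak in the extended span, and after MC2580 3 (13%), against the 36.2% and 20.1% of all protein-coding genes. Within 3 kb of a start, 4 had a DMSO peak, against 16.1% of protein-coding genes, and 1 had an MC2580 peak, against 7.87%. With 23 genes these counts are not read as a difference from all genes. The other class II genes, HLA-DRB5, HLA-DQA2, HLA-DQB2, HLA-DOA and HLA-DOB, had no peak, as was the case for most of the set.

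The list included genes of the route by which interferon-γ induces CIITA, of which IFNGR1, a receptor chain, and JAK1, a kinase of the receptor, had no peak in either list. IRF1, a transcription factor that activates a CIITA promoter, had 6 DMSO peaks and 3 MC2580 peaks in its extended span. Its annotated span is long, from 132440440 to 132508719 on chromosome 5. The start distances given here are to any annotated IRF1 transcript. Distances to the RefSeq start of IRF1 were not computed, so these peaks are not read as lying at its main promoter. The strongest DMSO peak of IRF1, at chr5:132455609-132458094, scored 551.25 and lay 2587 bp from a start site, and its MC2580 counterpart scored 101.24. At the other shared IRF1 positions the scores were 377.76 in DMSO and 123.59 after MC2580, and 390.25 and 151.69. A DMSO peak with a score of 104.42 covered an annotated IRF1 start and had no MC2580 counterpart. IFNGR2, a chain of the interferon-γ receptor, had a DMSO peak with a score of 127.97 at 516 bp from a start. It had no MC2580 peak.

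Among the 7 promoter factors, NFYA, a subunit of NF-Y, had a DMSO peak 249 bp from a start with a score of 57.53 and no MC2580 peak, and the other 6 had none. LGMN was the only one of 4 antigen-processing genes with a peak, and MARCHF8 the only one of 2 ubiquitin ligases that target class II molecules. Both had peaks in both lists, and the nearest lay over 3 kb from a start. Among all protein-coding genes 36.2% had a DMSO peak in the extended span and 20.1% an MC2580 peak. With groups of 7, 4 and 2 genes, these counts are not read as a difference from all genes. No peak of the pathway list occurred after MC2580 without a DMSO peak at the same place. The share of all MC2580 peaks that overlap a DMSO peak was not computed, so this is not read as a trait of these genes. Several DMSO peaks of the list had no MC2580 counterpart. That was the usual case, since among all DMSO peaks only 33.6% overlapped an MC2580 peak.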

How the data were processed

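V5 ChIP-seq libraries of NB4 cells (1 each for GSE1 with DMSO, GSE1 with MC2580 and EV) and their inputs were represented by 2 peak lists, each assigned to its condition from its name. The study's methods give alignment to hg38 with Bowtie, keeping uniquely matching reads with at most 2 mismatches. The authors then ran MACS (p-value limit 1e-05), with the input of each condition and the EV ChIP as background. How these calls were combined is not given in the sources used here. The score column was deposited by the authors as minus 10 times the log10 of the p-value. The DMSO list held 21401 peaks and the MC2580 list 13233. Depth was unknown, both lists shared the EV control, and the EV and input libraries were not analysed here on their own.

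Gene spans and start sites were taken from GENCODE version 44, and coordinates count from 1. Peaks were shared when they overlapped by at least 1 bp. With 1 library per condition no test between conditions was made. All 10 genes and every peak in their extended spans are named. Genes of the pathway list are named where a peak lay within 3 kb of a start, except 1 that is counted but not reported here, as are neighbouring genes that held a peak of the set. The other class II genes, IFNGR1, JAK1, LGMN and MARCHF8 fall outside this rule and were named after their values were seen. Also chosen then were the comparisons with 200 peaks of like score, the peak-free interval and the peak density. The genes, lists and words were chosen with earlier results of these data known. Words were searched on both strands. Interval and word functions were tested on simulated data. Python 3.11.15, numpy 2.4.6, pandas 2.3.3 and matplotlib 3.10.9 were used.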

Additional observations from a re-analysis of the deposited data

How the results depend on the processing

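The values depended mainly on the window and on the score. With 5 kb on each side 1 gene had a DMSO peak (27.4% of protein-coding genes, and 14.9% for MC2580), and with 50 kb it was 5 genes in DMSO and 2 after MC2580 (47.9% and 27.3%). With the gene span alone, the DMSO and MC2580 peaks, the genes with them and the shared peaks were all 0, against 22.9% and 12.3% of protein-coding genes. A score of at least 100 left 1 DMSO peak at 1 gene, 0 MC2580 peaks at 0 genes and 0 shared peaks (22.3% and 7.56%), and required in DMSO only it also left 0 shared peaks. Basic transcripts gave 35.5% in DMSO. RefSeq spans, added after seeing the data, gave 35.3% and 19.6% and changed no count of the set. RefSeq starts, also added then, left 0 genes with a DMSO peak within 3 kb of a start, since the HLA-DMA call rests on 1 long transcript. A start distance of 5 kb gave 1 gene with an MC2580 peak. Of the other 35 of 62 alternative values, 30 equalled the reported value. The remaining 5 were within 1.5 times it for counts (2 DMSO peaks at 5 kb and 4 at 50 kb) or within its 95% interval for percents (36.1, 20 and 19.7). No paired analysis was possible because each condition had 1 library, and for the same reason no replicate could be left out. Without read counts, a site under the calling threshold could not be told from one without enrichment.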

Other observations

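The highest-scoring peaks between HLA-F and the class II block, chosen after their values were seen, lay in the class I and class III regions. The strongest DMSO peak there, at chr6:31558159-31561079, overlapped NFKBIL1 and scored 2966.1, with an MC2580 counterpart of 669.33. The next overlapped SFTA2 (1125.97 in DMSO and 468.44 after MC2580) and LST1 (1041.71 and 505.24). All 3 had peaks in both lists, but they were picked for their high scores. Of the 200 DMSO peaks with scores near 398.29, 78.5% were already overlapped by an MC2580 peak. The share at the scores of these 3 peaks was not computed. Of the 33 DMSO peaks in this stretch, 12 overlapped an MC2580 peak and 21 did not. Among all DMSO peaks 33.6% overlapped an MC2580 peak, so that 12 of 33 does not set the stretch apart.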
